A study of Mus musculus with 26 samples.

Results

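Messenger RNA levels of 10 genes of the muscle atrophy programme were followed through muscle regeneration and myoblast differentiation: the F-box ligase genes Fbxo32, Fbxo40 and Fbxo30, the MuRF ligase genes Trim63, Trim54 and Trim55, the FoxO genes Foxo1, Foxo3 and Foxo4, and Klf15. They were chosen by symbol and not by a cut on their values, though with earlier results of these data known. All 10 were found in both deposited expression tables, among 55898 gene identifiers in all. The muscle table held tibialis anterior (TA) muscle of 6-week-old C57BL/6J mice, which the methods name as male. The sex markers of these libraries are given below. The muscle was taken before (day 0) and 1, 3, 5 and 10 days after an injection of cardiotoxin (CTX), a venom protein that destroys muscle fibres and sets off regeneration. The methods name a saline injection as the control, but whether the day 0 muscles had received it is not given in the sources used here. The cell table held C2C12 cells, a mouse myoblast line, as control cells (CTRL) and as cells carrying dCas9-KRAB with guide RNA against the promoter of Mettl3 (Cas9M3), the catalytic subunit of the m6A methyltransferase. dCas9-KRAB binds a promoter without cutting it and represses transcription, so Cas9M3 is called a knockdown here. Both cell groups were taken in growth medium with 10% fetal bovine serum (GM, day 0) and after 3 days in differentiation medium with 2% horse serum (DM3). The knockdown cells were made by lentiviral transduction and kept as stable cells after puromycin selection. Whether the 2 libraries of a knockdown group came from 1 such line, and which construct the control cells carried, are not given in the sources used here. Each of the 5 muscle groups and 4 cell groups had 2 libraries, 18 in all.

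Ubiquitin ligases mark proteins for breakdown by the proteasome. Fbxo32 (atrogin-1) is the substrate-binding subunit of an SCF ligase and Trim63 (MuRF1) is a RING-finger ligase of the sarcomere. Both are the classic markers of muscle wasting, since fasting, denervation and glucocorticoids raise them. Foxo1, Foxo3 and Foxo4 encode forkhead transcription factors that switch on Fbxo32 and Trim63 when they are in the nucleus, and insulin and IGF1 signalling through Akt phosphorylates the FoxO proteins and keeps them out of it. Klf15 is a zinc-finger factor induced by the glucocorticoid receptor and is also known to raise the expression of these ligases. FoxO activity is therefore set largely after translation, which mRNA levels do not show.

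Levels are given as FPKM as the authors deposited them, read counts scaled to the length of a gene and by a factor for its library. This factor did not follow the reads recovered on genes. In day 0 replicate 1 of muscle, with 16780000 reads, 1 read on 1 kb was worth 0.0803 FPKM. In day 3 replicate 1, with 14330000 reads, it was worth 0.0507 FPKM. The muscle and cell tables were scaled separately, so levels are compared within a table only. Between 14170000 and 18820000 reads on genes were recovered per muscle library and between 14230000 and 29560000 per cell library. In muscle, 1 non-coding gene, Gm23935, took 21.5 to 30.2% of the summed FPKM. The muscle libraries did not carry 1 sex: Xist was at 5.77 to 10.0 FPKM in the libraries of days 0 and 10 and in day 3 replicate 2, and at 0.0170 to 0.152 FPKM in the other 5, which had 6.10 to 11.4 FPKM of the Y-linked Ddx3y, although the methods name male mice. Its part in the muscle comparisons was not tested beyond a term for Xist in the model. The 2 GM libraries within each cell line stood far apart and those of DM3 did not, as the values below show. Nothing in the labels says whether the 2 libraries of a group came from separate animals or cultures, so p-values measure the spread between these libraries only. With 2 libraries against 2, an exact two-sided permutation test of a single gene cannot give a p below 0.333, and differences were therefore tested across all genes of a table with limma on log2(FPKM + 0.1), with Benjamini-Hochberg adjustment, and a gene was called where its adjusted p did not exceed 0.05.

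In day 0 muscle, Trim54 had the highest level, at 236 and 166 FPKM in the 2 libraries, with a mean of 201 ± 49.1 (SD, n = 2). Trim63 followed at 100 ± 42.5, Fbxo40 at 72.7 ± 13.1, Fbxo32 at 61.0 ± 26.3 and Foxo4 at 59.4 ± 16.8 FPKM (SD, n = 2 each). These 4 genes had ranges that overlapped from one to the next, so their order is not resolved. Trim55 stood at 31.7 ± 0.153 and Klf15 at 14.5 ± 7.54 FPKM. Foxo3, Fbxo30 and Foxo1 formed the low end, at 4.4 ± 0.0303, 3.12 ± 0.849 and 2.88 ± 0.396 FPKM, and the ranges of the last pair overlapped. Among Foxo1, Foxo3 and Foxo4, the last was therefore the most abundant mRNA by a wide margin. The ligases with muscle-restricted expression lay above the broadly expressed Fbxo30. All 10 genes passed the filter of 0.5 FPKM in at least 2 libraries in muscle, where 16753 of 53465 genes did.

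The promoters of 3 ligase genes that fell at day 3 are shown here because FoxO factors and the myogenic factors that bind E-boxes are known to act at such genes. RefSeq windows on GRCm38.p6, from 250 bases before to 50 bases after each start, were held for 7 of the 10 genes, with 2 windows for Fbxo40, and the 3 genes with none were Fbxo32, Trim55 and Foxo4. The 250 bases before the start are given 5′ to 3′ on the strand of the gene, with a FoxO core (TGTTTAC) or a myogenic E-box (CAGCTG) in capitals. They lie at chr4:134314870-134315119 on the plus strand for Trim63, at chr5:31116362-31116611 on the plus strand for Trim54, and at chr16:36990468-36990717 on the minus strand for the upstream start of Fbxo40.
Trim63: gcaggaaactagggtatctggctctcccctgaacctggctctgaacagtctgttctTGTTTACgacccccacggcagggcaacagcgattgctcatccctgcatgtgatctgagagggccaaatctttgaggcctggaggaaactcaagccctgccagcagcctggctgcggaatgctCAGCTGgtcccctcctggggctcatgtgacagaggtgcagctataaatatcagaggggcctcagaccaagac
Trim54: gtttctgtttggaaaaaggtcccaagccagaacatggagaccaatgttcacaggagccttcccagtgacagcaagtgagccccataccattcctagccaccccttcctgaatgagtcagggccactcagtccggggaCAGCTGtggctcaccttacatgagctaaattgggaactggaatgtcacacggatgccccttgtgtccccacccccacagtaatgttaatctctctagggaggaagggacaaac
Fbxo40: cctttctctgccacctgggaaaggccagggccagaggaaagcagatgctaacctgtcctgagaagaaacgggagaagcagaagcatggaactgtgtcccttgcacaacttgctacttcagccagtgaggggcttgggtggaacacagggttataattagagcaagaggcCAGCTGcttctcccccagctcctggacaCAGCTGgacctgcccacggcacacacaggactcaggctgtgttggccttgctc
The FoxO core of Trim63 began 194 bases before the start and its E-box 72 bases before. Trim54 had 1 E-box, 113 bases before the start, and this window of Fbxo40 had 2, at 81 and 53 bases before. Both motifs were searched on both strands and do not overlap each other, and CAGCTG reads the same on either strand. Among 32851 windows of the same length, 3.65% held the FoxO core and 16.3% the E-box. Exact matches to the palindrome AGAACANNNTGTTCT, bound by the glucocorticoid receptor, were found in 0.00913% and in no window of the 7 genes. Partial matches were not searched for. The Trim63 letters tgaacagtctgttct, directly before the FoxO core, differ from this palindrome in their first base alone. Fbxo30, Foxo1, Foxo3 and Klf15 held none of the 3 motifs in their windows, and differed from the muscle ligases in base composition: their GC content was 61.3 to 79.7%, against 51.3 to 57% for Trim63, Trim54 and Fbxo40 and a median of 52.7% over all windows. A match describes these letters in these windows and not a bound site.

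Fbxo32 (ENSMUSG00000022358, GRCm38 chr15:58175879-58214932, minus strand, 9 exons) had the largest fold change of the 6 ligase genes in muscle. It was at 79.6 and 42.4 FPKM at day 0, at 25.9 and 23.1 at day 1, at 15 and 6.59 at day 3, at 6.22 and 3.80 at day 5, and at 42.5 and 11 FPKM at day 10. Every library of days 1, 3 and 5 lay below both day 0 libraries, and the 2 day 10 libraries were far apart, 1 of them just above the lower day 0 library. Fbxo32 fell 5.78-fold by day 3 (log2 fold change -2.53, SE 0.66, adjusted p = 0.0152) and 11.7-fold by day 5 (-3.55, SE 0.66, adjusted p = 0.0149). The differences at day 1 (-1.24, SE 0.66, adjusted p = 0.271) and day 10 (-1.42, SE 0.66, adjusted p = 0.521) did not pass the test. The call at day 3 was lost without day 0 replicate 1 or day 3 replicate 2, and that at day 5 without day 0 replicate 1 or either day 5 library, with adjusted p up to 0.107 and a log2 fold change from -3.12 to -1.94 at day 3 and from -4.00 to -3.10 at day 5.

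Fbxo40 (ENSMUSG00000047746, chr16:36963460-36990467, minus strand), a muscle-restricted F-box protein known to target Irs1 of the insulin pathway, was lowest at day 3 and not at day 5. Its levels were 81.9 and 63.4 FPKM at day 0, 49.5 and 59.9 at day 1, 22.7 and 12.8 at day 3, 38.2 and 25.6 at day 5, and 68.5 and 53.2 FPKM at day 10. The day 3 libraries lay below all 8 others. Fbxo40 fell 4.22-fold from day 0 to day 3 (-2.08, SE 0.31, adjusted p = 0.00161) and rose 3.53-fold from day 3 to day 10 (1.82, SE 0.31, adjusted p = 0.00409), and both calls held without any 1 of the 10 libraries. From day 1 to day 3 it fell 3.19-fold (-1.67, SE 0.31, adjusted p = 0.00839), which was lost without day 3 replicate 2 (-1.26, adjusted p = 0.0571). At day 5 it was still 2.30-fold below day 0 (-1.20, SE 0.31, adjusted p = 0.0313), a call that was lost without any 1 of the day 0 and day 5 libraries (adjusted p up to 0.181). Fbxo30 (ENSMUSG00000047648, chr10:11281330-11298052, plus strand), known as MUSA1, a ligase subunit held down by BMP signalling, ranged from 2.35 to 4.65 FPKM over the 10 muscle libraries. It passed the test in none of the muscle comparisons. Its libraries overlapped in all of them except day 10 against day 3, where both day 10 libraries, at 3.02 and 2.35 FPKM, lay below both day 3 libraries, at 3.93 and 3.63 FPKM (log2 fold change -0.49, SE 0.28, adjusted p = 0.209).

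Trim63 (ENSMUSG00000028834, chr4:134315120-134329629, plus strand, 10 exons) had overlapping libraries at days 0 and 1. The difference between these days did not pass the test (log2 fold change 0.29, SE 0.41, adjusted p = 0.692). It was at 130 and 70.0 FPKM at day 0, at 131 and 104 at day 1, at 37.6 and 48.8 at day 3, at 32.2 and 27.2 at day 5, and at 105 and 47.0 FPKM at day 10. The libraries of days 3 and 5 lay below those of days 0 and 1, and those of day 10 spread over both ranges. It fell 2.23-fold from day 0 to day 3 (-1.15, SE 0.41, adjusted p = 0.0499), 2.72-fold from day 1 to day 3 (-1.44, SE 0.41, adjusted p = 0.0337) and 3.22-fold from day 0 to day 5 (-1.69, SE 0.41, adjusted p = 0.0262). The first of these calls held in 3 of the 10 fits that left out 1 library, the second in 4 and the third in 7: the first was lost without day 0 replicate 1 (-0.71) or any 1 of the day 1, 3 and 5 libraries, the second without any 1 of the day 1, 3 and 5 libraries, and the third without day 0 replicate 1 or either day 5 library (adjusted p up to 0.270, 0.152 and 0.161). Trim63 and Fbxo32, the usual pair of atrophy markers, thus had day 0 and day 1 values that overlapped for Trim63 and did not for Fbxo32. Neither gene was called at day 1, and whether they differ there was not tested.

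Trim54 (ENSMUSG00000062077, chr5:31116712-31137630, plus strand), the MuRF3 ligase that binds microtubules and the Z-disc, was lowest at day 3. Its levels were 236 and 166 FPKM at day 0, 188 and 207 at day 1, 58.9 and 54.4 at day 3, 103 and 66.0 at day 5, and 163 and 112 FPKM at day 10. The day 3 libraries were the lowest of all 10. Trim54 fell 3.49-fold from day 0 to day 3 (-1.80, SE 0.28, adjusted p = 0.00169) and 3.48-fold from day 1 to day 3 (-1.80, SE 0.28, adjusted p = 0.00462), and both calls held without any 1 library. It was 2.39-fold below day 0 at day 5 (-1.26, SE 0.28, adjusted p = 0.0201) and rose 2.39-fold from day 3 to day 10 (1.25, SE 0.28, adjusted p = 0.0104), and these were lost without day 0 replicate 1 or day 5 replicate 2, and without day 3 replicate 2 or day 10 replicate 1 (adjusted p up to 0.132 and 0.0721). An antisense gene, Gm15469, overlaps 382 bases of the exons of Trim54 and stood at 121 and 79.4 FPKM at day 0 and at 33.3 and 27.5 FPKM at day 3, while no cell library had more than 0.0982 FPKM of it. The sources used here do not say whether counting used strand, so reads of a gene and of its antisense partner cannot be told apart, which also holds for Fbxo32 with Gm15943 and Foxo1 with Gm20402.

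Trim55 (ENSMUSG00000060913, chr3:19644474-19692421, plus strand), the MuRF2 ligase that binds titin and microtubules, moved least of the 3 MuRF genes. It was at 31.8 and 31.6 FPKM at day 0, at 21.5 and 23.0 at day 1, at 25.4 and 30.7 at day 3, at 22.5 and 19.3 at day 5, and at 32.6 and 27.7 FPKM at day 10. All libraries of days 1, 3 and 5 lay below the day 0 libraries, which differed little from each other. It passed the test at day 5, 1.52-fold below day 0 (-0.60, SE 0.15, adjusted p = 0.0271), a call lost without any 1 of the 4 day 0 and day 5 libraries (adjusted p up to 0.158).

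Foxo4 (ENSMUSG00000042903, chrX:101254528-101260873, plus strand) was the FoxO gene, among those followed here, that was called in muscle. It was at 71.3 and 47.5 FPKM at day 0, at 30.7 and 44.3 at day 1, at 18.3 and 19.6 at day 3, at 19.5 and 14.3 at day 5, and at 41.2 and 25.6 FPKM at day 10. The libraries of every later day lay below both day 0 libraries, with days 3 and 5 lowest. Foxo4 fell 3.06-fold by day 3 (-1.61, SE 0.31, adjusted p = 0.00416), a call that held without any 1 library, and was 3.47-fold below day 0 at day 5 (-1.79, SE 0.31, adjusted p = 0.0131), a call lost without day 0 replicate 1 or day 5 replicate 2 (adjusted p up to 0.1). From day 1 to day 3 it fell 1.94-fold (-0.96, SE 0.31, adjusted p = 0.0493), and this call held only in the 4 fits that left out a library of day 0 or day 10 (adjusted p up to 0.200 in the others).

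Foxo1 (ENSMUSG00000044167, chr3:52268336-52353221, plus strand) and Foxo3 (ENSMUSG00000048756, chr10:42181841-42276755, minus strand) kept low and narrow levels. Foxo1 was at 2.60 and 3.16 FPKM at day 0 and at 1.90 and 2.11 at day 3, where the libraries did not overlap but the test was not passed (adjusted p = 0.0813). Foxo3 ranged from 2.85 to 4.92 FPKM over all 10 libraries, and its day 3 values of 3.96 and 4.92 spanned the day 0 values of 4.38 and 4.42. Neither passed the test in any muscle comparison, so among the 3 FoxO genes a called fall was seen for Foxo4, and whether the falls differ between the genes was not tested.

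Klf15 (ENSMUSG00000030087, chr6:90462576-90475238, plus strand) had the largest fold change of the 10 genes at day 3. It was at 19.9 and 9.20 FPKM at day 0, at 3.15 and 12.5 at day 1, at 1.74 and 1.43 at day 3, at 3.34 and 2.60 at day 5, and at 11.9 and 4.32 FPKM at day 10. The libraries of days 3 and 5 lay below both day 0 libraries, and the day 1 libraries were 1 below and 1 within. It fell 8.11-fold by day 3 (-3.02, SE 0.70, adjusted p = 0.0094) and rose 4.33-fold from day 3 to day 10 (2.11, SE 0.70, adjusted p = 0.0468), whereas its difference from day 0 at day 5 (-2.16, SE 0.70, adjusted p = 0.0569) missed the threshold. The day 3 call was lost without day 0 replicate 1 or day 3 replicate 2 (adjusted p up to 0.0658). The rise to day 10 held in 3 of 10 fits, those without a day 1 library or day 10 replicate 2, and was lost without any 1 of the other 7 (adjusted p up to 0.252). The day 5 difference passed without any 1 of the day 1 and day 10 libraries (adjusted p from 0.0308).

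**Figure D1:**
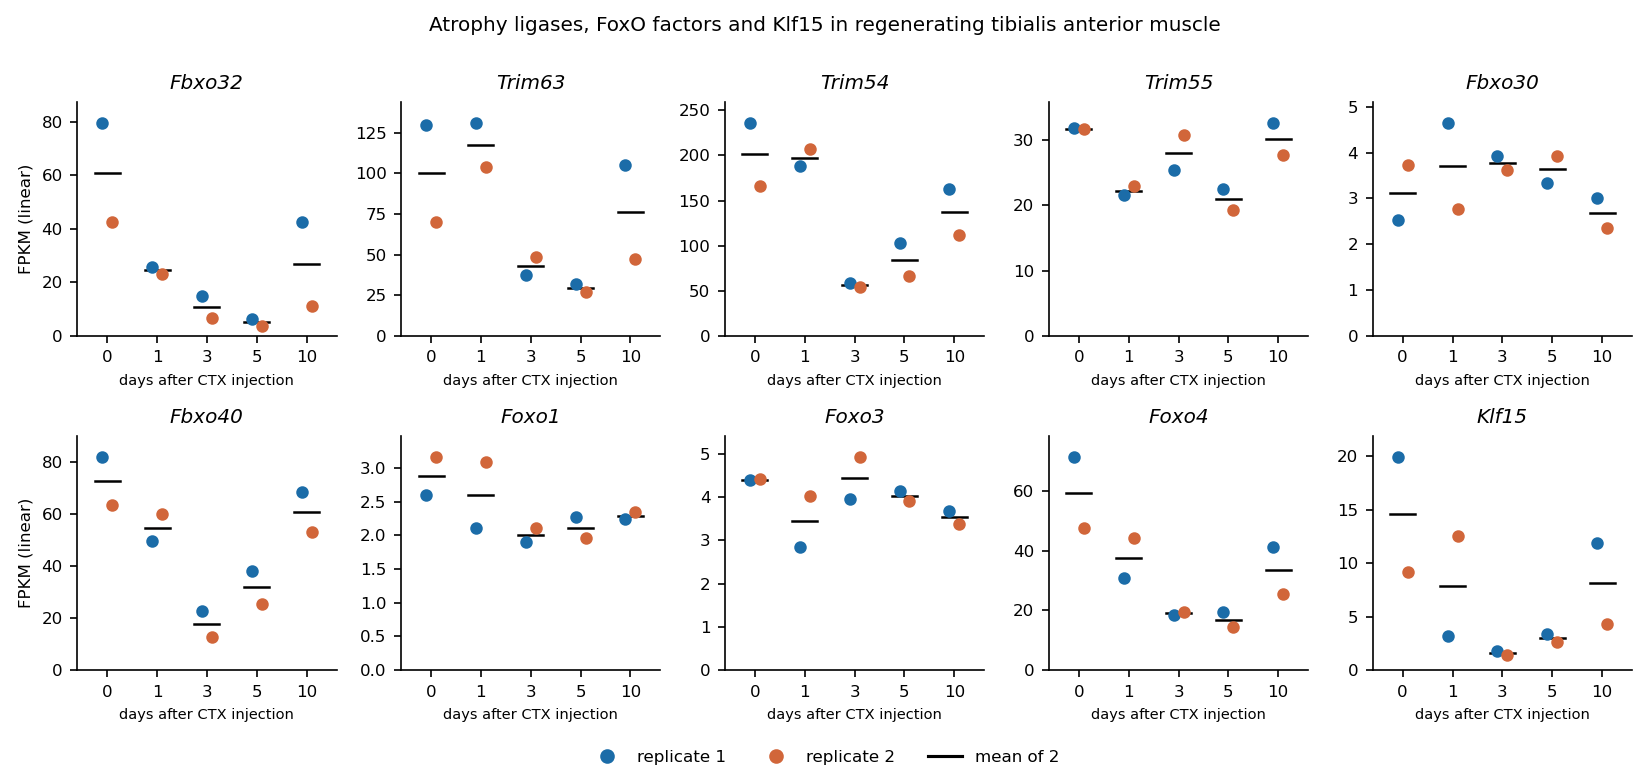
FPKM (linear axis from 0, with its own scale in each panel) of the 10 genes in TA muscle at 0, 1, 3, 5 and 10 days after CTX, with each point 1 library (blue replicate 1, orange replicate 2) and each black bar the mean of the 2. Fbxo32 is lowest at day 5 (6.22 and 3.80 FPKM), Trim54, Fbxo40 and Klf15 are lowest at day 3, and Fbxo30, Foxo1 and Foxo3 stay within narrow ranges.

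Counted over the 10 genes, none was called at day 1, 6 were lower at day 3, 6 were lower at day 5 and none was called at day 10, each against day 0. Over all genes tested, 3.53% were called higher and 2.47% lower at day 1, 24.5% higher and 24.3% lower at day 3, 12.9% higher and 12.5% lower at day 5, and 0.00597% higher and 0% lower at day 10. The share of the 10 genes that fell was thus above the share of all genes at days 3 and 5, and none of them rose. Fbxo32, Trim63, Trim54, Fbxo40 and Foxo4 were called at both days, with Klf15 at day 3 and Trim55 at day 5, and these comparisons share the day 0 libraries. Their median log2 fold change was -0.39, -1.38, -1.23 and -0.38 at days 1, 3, 5 and 10, where the median of all genes was within 0.01 of 0. At an unadjusted p under 0.05, limma gave 1 of the 10 genes at day 1 and 1 at day 10. The shares of all genes above hold for the adjusted p and for the fit of all 10 libraries. They are no background for a count at an unadjusted p or for the fits with a library left out. The counts leaned on single libraries: at day 3 they were 3 without day 0 replicate 1 or day 3 replicate 2, and at day 5 they were 0 without day 0 replicate 1 or day 5 replicate 2 and 2 without day 5 replicate 1.

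Between later days, 4 of the 10 genes were lower at day 3 than at day 1 (Trim63, Trim54, Fbxo40 and Foxo4), where 14.5% of all genes were called higher and 16.6% lower. From day 3 to day 5 none was called, 2 having an unadjusted p under 0.05 in limma, where 7.23% of all genes were called higher and 5.46% lower. From day 3 to day 10, 3 were higher (Trim54, Fbxo40 and Klf15), where 19.1% of all genes were called higher and 18.8% lower. Leaving out a library moved the first count to 1 without day 3 replicate 2 and to 2 without day 3 replicate 1 or either day 5 library. It moved the last count to 1 without day 3 replicate 2 or day 10 replicate 1, and to 6 without day 10 replicate 2. With a term in the model for the libraries that carry Xist, 5 of the 10 genes were lower at day 3 and none at day 5, where Fbxo32 had a log2 fold change of -4.73 (adjusted p = 0.163). Day 3 was the only day with libraries of both kinds, so this term rests on the difference between its 2 libraries. Days 0 and 5 differ wholly in Xist, as do days 0 and 1. There the day and the sex markers are separated only through those libraries of day 3. The shares of all genes in this paragraph hold for the adjusted p, with all libraries and no term for Xist. None is given for an unadjusted p or for the other fits, so those counts have no background here.

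**Figure D2:**
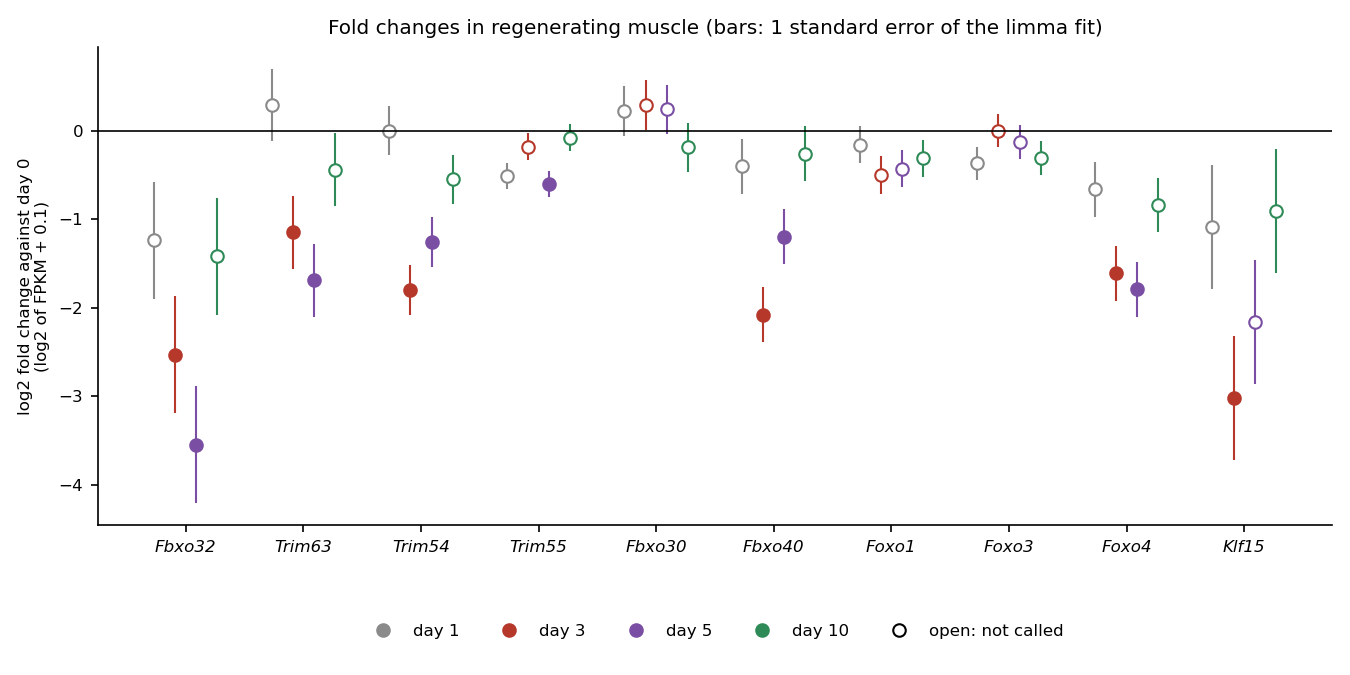
Log2 fold change (log2 FPKM + 0.1 scale) of the 10 genes in muscle against day 0 at days 1, 3, 5 and 10, with bars of 1 SE from limma, filled points for called genes and open points for the rest (2 libraries a day, colours mark days). At day 3, 6 genes are called, from -1.15 (Trim63) to -3.02 (Klf15), and at day 5, 6 genes, from -0.60 (Trim55) to -3.55 (Fbxo32), all below 0.

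The fibre itself was lost and rebuilt over these days, and in whole muscle fewer cells of a type and less RNA per cell cannot be told apart. A list of 15 genes of the mature fibre had a summed level of 97600 and 86300 FPKM at day 0, 26700 and 20800 at day 3, and 65500 and 67400 at day 5, and all 15 were called lower at day 3 (median log2 fold change -2.12) against 1 at day 5 (median -0.78). Of 11 white blood cell markers, 9 were tested and 7 were higher at day 3, with sums of 39.0 and 80.3 FPKM at day 0 and of 1230 in both day 3 libraries. All 8 markers of newly formed muscle were higher at day 3, with sums that went from 349 and 699 to 2000 and 2790 FPKM. Of 6 fibroblast and fibro-adipogenic markers 3 were higher at day 3 and 4 at day 5 (sums of 62.9 and 183 FPKM at day 0, 647 and 726 at day 3, and 808 and 911 at day 5), and of 6 endothelial markers 3 were lower at day 3 and none was called at day 5. At day 5, when Fbxo32 was lowest, 5 of the 9 white blood cell markers and 6 of the 8 of newly formed muscle were still higher than at day 0, with sums of 330 and 354 and of 2560 and 4090 FPKM. The part of these shifts in the falls of the 10 genes was not tested, so each gene was also set against the mean log2 level of the 15 fibre genes in the same library, as a description.

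Against the fibre genes, the 10 genes did not move alike. Trim54, Fbxo40 and Foxo4 were near the fibre at day 3, at 0.39, 0.12 and 0.58 log2 units above their own day 0 ratio, whereas Trim55, Fbxo30, Foxo1 and Foxo3 stood 2.01, 2.49, 1.69 and 2.20 units above it. The levels of these last genes were not called at day 3, with log2 fold changes of -0.18, 0.29, -0.50 and 0.00. Their ratios thus rose while the fibre genes fell. Klf15 lay below the fibre at day 3, at -0.83 (-0.97 and -0.69 in the 2 libraries). Fbxo32 was close to it at day 3, at -0.34 (-0.66 and -0.02), and was the lowest of the 10 at day 5, at -2.86 (-3.13 and -2.60), when the fibre genes had largely returned. The day 5 value of Fbxo32 was -2.69 when Ckm, the muscle creatine kinase, replaced the list. Klf15, Foxo4 and Trim63 were also below the fibre at day 5, at -1.47 (-1.57 and -1.38), -1.11 (-1.24 and -0.97) and -1.0 (-1.04 and -0.96). Trim54 (-0.57, with -0.81 and -0.33) and Fbxo40 (-0.51, with -0.72 and -0.31) were below it as well, by less, and Trim55, Foxo1, Foxo3 and Fbxo30 were above it, at 0.08, 0.26, 0.56 and 0.92. Trim63 had stood above it at day 1 (0.89, with 0.67 and 1.12) and at day 3 (1.04, with 0.58 and 1.49), which Fbxo32 did not, at -0.64 (-0.78 and -0.51) at day 1. At day 10 all 10 genes were below their day 0 ratio, from -0.11 for Trim55 to -1.46 for Fbxo32, whose libraries gave -2.28 and -0.63.

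**Figure D3:**
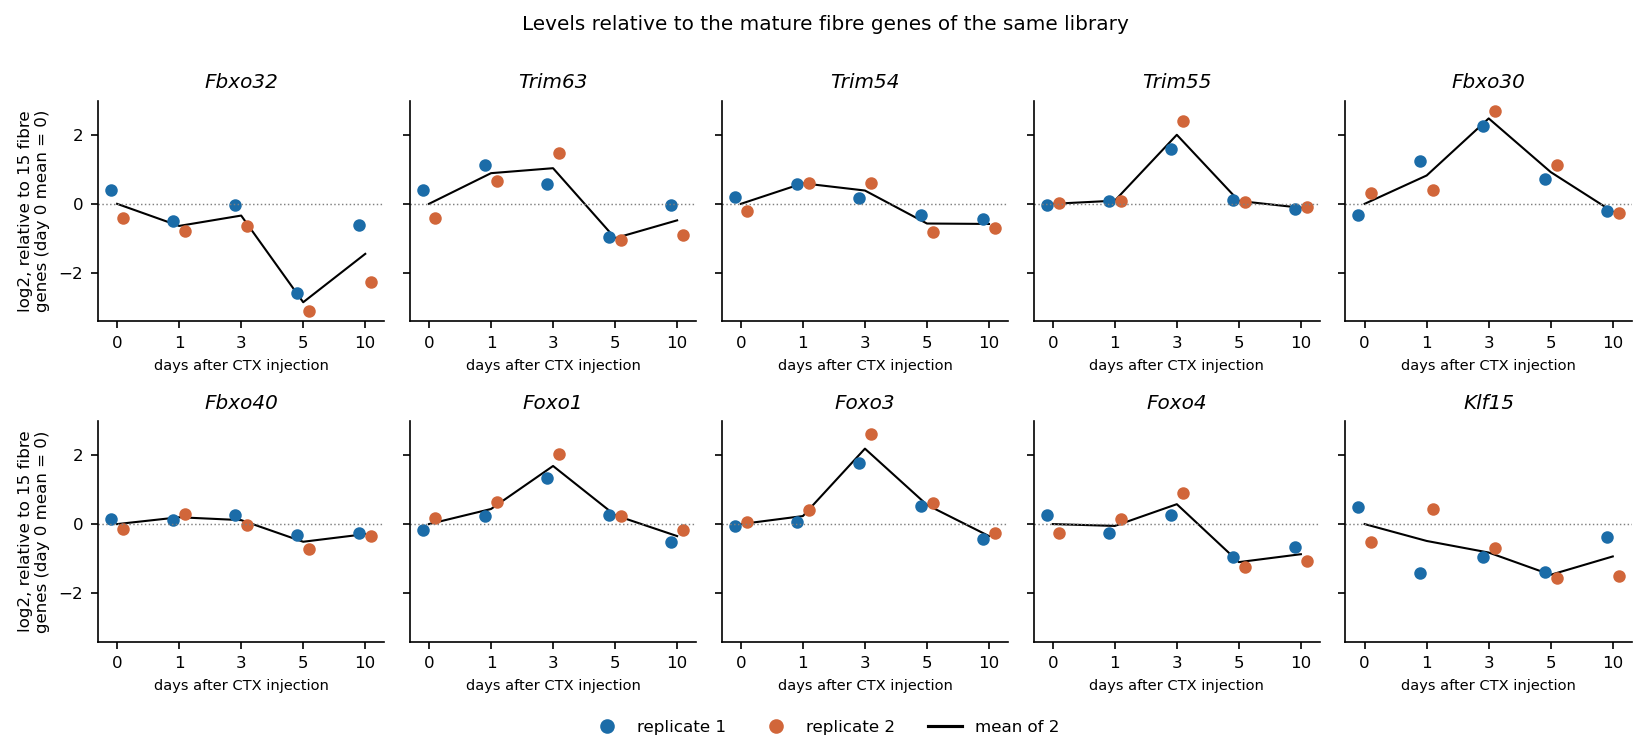
Log2 level of each of the 10 genes minus the mean log2 level of 15 mature fibre genes in the same muscle library, set to 0 at the day 0 mean, at days 0, 1, 3, 5 and 10 (points are libraries, 2 per day, and lines join day means). Fbxo32 drops to -2.86 at day 5, while the ratios of Trim55, Fbxo30, Foxo1 and Foxo3 to the fibre genes peak at day 3, between 1.69 and 2.49.

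Within each family the make-up of the mRNA pool shifted, given here as shares of summed FPKM with no test. Of the 3 MuRF genes, Trim54 held 59.3 and 62.1% at day 0, 48.3 and 40.7% at day 3, and 65.3 and 58.7% at day 5. Trim55 went from 8.0 and 11.8% at day 0 to 20.9 and 22.9% at day 3, and Trim63 held 32.7 and 26.1% at day 0, 38.5 and 31.2% at day 1, 30.9 and 36.4% at day 3 and 20.4 and 24.2% at day 5. Of the 3 FoxO genes, Foxo4 held 91.1 and 86.2% at day 0, 75.8 and 73.6% at day 3, 75.2 and 71.0% at day 5 and 87.4 and 81.7% at day 10. Foxo3 took 5.59 and 8.03% at day 0 and 16.4 and 18.5% at day 3. Foxo1 took 3.33 and 5.75% at day 0 and 7.85 and 7.9% at day 3. For Trim54, Trim55 and the 3 FoxO genes the day 0 and day 3 shares did not overlap, and for Trim63 they did. Shares within a family depend on each other, and no background from other genes was drawn. Foxo4 kept the largest of the 3 FoxO shares on every day.

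**Figure D4:**
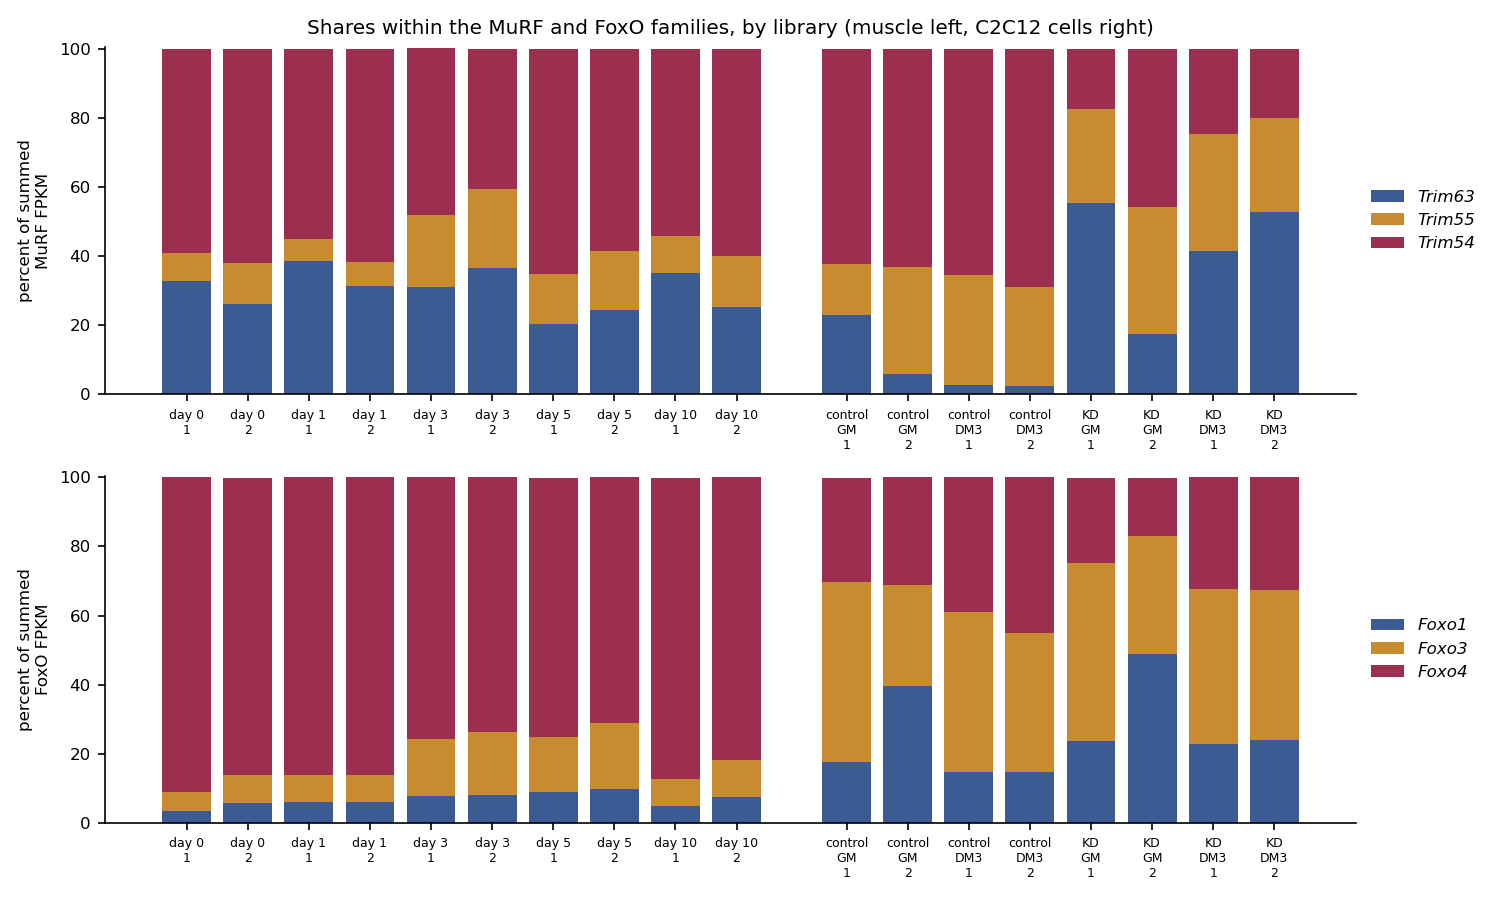
Share (percent of summed FPKM) of Trim54, Trim55 and Trim63 and of Foxo1, Foxo3 and Foxo4 in every muscle library (days 0 to 10) and cell library (control and knockdown, GM and DM3), 1 stacked bar per library. Foxo4 fills 71.0 to 91.1% of the FoxO bar in muscle and 16.8 to 45.0% in cells, and Trim54 fills 65.6 and 69.1% of the MuRF bar in control DM3 but 24.6 and 20.2% in knockdown DM3.

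The wider pathway was read from 4 lists. Of 35 other muscle ubiquitin ligases and adaptors, 16 were lower and 2 higher at day 3 (median log2 fold change -0.45), against 24.3% and 24.5% of all genes, and 12 were lower and 2 higher at day 5, against 12.5% and 12.9%. Asb11 (-3.50, adjusted p = 0.000542), Asb10 (-3.12, adjusted p = 0.00109) and Asb14 (-2.66, adjusted p = 0.00396), SOCS-box adaptors of cullin ligases, fell most at day 3, while Fbxl22 (1.22, adjusted p = 0.01), an F-box protein of the sarcomere, and the HECT ligase Nedd4 (0.61, adjusted p = 0.00483) rose. The call of Fbxl22 held in 8 of 10 fits that left out 1 library, with adjusted p up to 0.0682. From day 3 to day 10, 14 of the 35 were higher and 1 lower, against 19.1% and 18.8% of all genes.

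Of 30 known FoxO target genes, 13 were lower and 4 higher at day 3 (median -0.44), against 24.3% and 24.5% of all genes. At day 5, 12 were lower and 0 higher, against 12.5% and 12.9%. From day 3 to day 10, 6 were higher and 3 lower, against 19.1% and 18.8%, so the count of higher genes was near the background there. The members did not move one way: Cdkn1a (3.24, adjusted p = 0.000995), a cell cycle inhibitor, Bcl2l11 (1.36, adjusted p = 0.00208), a pro-apoptotic factor, and Gadd45a (1.36, adjusted p = 0.00726), a stress response gene, rose at day 3. Pdk4 (-2.59, adjusted p = 0.00972), which restrains glucose oxidation, Mstn (-2.33, adjusted p = 0.00527), the secreted brake on muscle growth, and Irs2 (-2.22, adjusted p = 0.0180), an insulin receptor substrate, fell. Without 1 library, Pdk4 was called in 8 of 10 fits, Gadd45a in 9 and Irs2 in 7, with adjusted p up to 0.0710, 0.0503 and 0.112.

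Of 28 genes of insulin, IGF1 and Akt signalling to FoxO, which include Irs2, 11 were lower and 4 higher at day 3 (median -0.42), against 24.3% and 24.5% of all genes. At day 5, 11 were lower and 2 higher, against 12.5% and 12.9%. Inpp5d (3.24, adjusted p = 0.000483), a lipid phosphatase of blood cells, Igf1 (1.81, adjusted p = 0.0161), the growth factor, and Akt1 (1.05, adjusted p = 0.00284) rose at day 3. Prkaa2 (-1.96, adjusted p = 0.000932), the AMPK subunit of muscle, and Irs1 (-1.94, adjusted p = 0.00166) fell with Irs2. Igf1 was called in 7 of 10 fits without 1 library, with adjusted p up to 0.0766, and the white blood cell markers given above moved with Inpp5d and Igf1, a part that was not tested.

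Of the 19 genes of the glucocorticoid receptor list 17 were tested, and 5 of them were lower and 1 higher at day 3 (median -0.75), against 24.3% and 24.5% of all genes, a count of lower genes near the background. At day 5, 4 were lower and 1 higher, against 12.5% and 12.9%. The gene that rose was the metallothionein Mt2 (3.88, adjusted p = 0.00052), and Zbtb16 (-1.94, adjusted p = 0.00174), Cebpb (-1.42, adjusted p = 0.0026) and Fkbp5 (-1.38, adjusted p = 0.00501) fell most. Leaving out a day 1 library gave 8 lower genes on this list at day 3, and leaving out day 0 replicate 1 gave 8 lower FoxO targets and 7 lower genes of insulin signalling in place of 13 and 11.

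On the day 5 counts the lists leaned on few libraries. With 12, 12, 11 and 4 lower genes in the order given above, all 4 had 0 without day 0 replicate 1 or day 5 replicate 2 and 2 each without day 5 replicate 1, and the FoxO targets and insulin genes had 7 and 6 without day 0 replicate 2. With the term for Xist, the lists had 12, 10, 8 and 4 lower genes at day 3 and 0 each at day 5. At day 1 they had 1, 2, 1 and 2 higher and 2, 3, 2 and 0 lower genes, against 3.53% and 2.47% of all genes. From day 3 to day 10 the insulin genes had 5 higher and 4 lower and the glucocorticoid genes 3 higher and 2 lower, against 19.1% and 18.8%, which is near the background. At day 10 no gene of the 4 lists was called against day 0 by limma. The lists share genes, among them Irs2 and Insr, and these counts are a description with no test. The shares of all genes come from all muscle libraries without the term for Xist, and are no background for the other fits.

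The genes whose levels followed a member most closely were named by Pearson correlation of log2 levels over the 10 muscle libraries, among 12285 genes, as a description, since the libraries share the same course of injury. Fbxo32 was followed by 2610035D17Rik (0.976), its antisense partner Gm15943 (0.975), Tle6 (0.970), Gstm1 (0.964) and Asna1 (0.961). Trim63 was followed by Zbed4 (0.968), 6030458C11Rik (0.966), Hsf4 (0.966), Ube2l3 (0.965), a ubiquitin-conjugating enzyme, and Cebpb (0.962), a glucocorticoid-induced factor of the list above. Klf15 was followed by Ehhadh (0.987), a peroxisomal enzyme of fat oxidation, 4833439L19Rik (0.986), Camk2a (0.983), Wwp1 (0.983), a HECT ligase, and 2610507B11Rik (0.978). Foxo1, whose range was narrow, reached lower values with Snrk (0.909), Gm28731 (0.905), Ckap5 (0.905), E430024P14Rik (0.895) and Cyth1 (0.895). Among the members themselves, the highest correlations were those of Fbxo32 with Foxo4 (0.934), Trim54 with Fbxo40 (0.928) and Foxo4 with Klf15 (0.913), and the lowest was that of Fbxo30 with Klf15 (-0.603).

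In C2C12 cells the targeted gene was reduced in every knockdown library. Mettl3 was at 4.70 and 5.65 FPKM in control GM, 4.68 and 5.15 in control DM3, 0.331 and 0.118 in knockdown GM, and 0.148 and 0.0805 FPKM in knockdown DM3. Of the 10 genes, 9 passed the filter in cells, as did 13824 of 55487 genes. Fbxo40 reached at most 0.251 FPKM and was not tested. It had 0 reads in control GM replicate 2, where 3 reads, the upper limit that a count of 0 allows, would be 0.0563 FPKM.

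The order of the members in differentiated control cells was not that of muscle. In control DM3, Trim54 led with 18.1 ± 0.970 FPKM, followed by Fbxo30 at 11.2 ± 0.669, Foxo3 at 8.39 ± 2.08, Trim55 at 8.11 ± 0.478, Foxo4 at 8.05 ± 0.412, Fbxo32 at 5.39 ± 0.514 and Foxo1 at 2.83 ± 0.403 (SD, n = 2 each). The levels of Foxo3, Trim55 and Foxo4 did not differ beyond their spread. Klf15 at 0.934 ± 0.231, Trim63 at 0.640 ± 0.0383 and Fbxo40 at 0.200 FPKM were at the low end. Trim63 and Fbxo40, among the highest members of day 0 muscle, were thus the lowest members of these cells.

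The GM libraries set the limit on what can be said of differentiation. Klf15 was at 6.32 and 0.223 FPKM in the 2 control GM libraries and at 6.24 and 0.254 in knockdown GM. Trim63 was at 2.71 and 0.146 in control GM and at 3.58 and 0.0575 in knockdown GM. Replicate 1 was thus 28.4 and 24.6 times replicate 2 for Klf15 and 18.6 and 62.3 times for Trim63. Trim54, Trim55, Fbxo32, Foxo3 and Foxo4 were higher in replicate 1 of both lines as well, whereas Foxo1 was higher in replicate 2. At DM3 no member differed more than 1.62-fold between the replicates of a line. The replicate 1 libraries were deeper (25160000 to 29560000 reads) than those of replicate 2 (14230000 to 18890000), and markers of newly formed muscle summed to 23.1 and 6.18 FPKM in control GM and to 29.6 and 1.17 in knockdown GM. The gene with the highest FPKM took 2.80 to 3.79% of the summed FPKM in the replicate 1 libraries (mt-Co1 in each) and 9.42 to 37.9% in those of replicate 2, where it was a non-coding gene, with 37.9% in control GM and 11.7% in knockdown GM. The part of depth, of this share and of these markers in the gap between GM libraries was not tested.

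Trim54 separated the lines most clearly. It was at 7.34 and 1.59 FPKM in control GM, at 17.4 and 18.7 in control DM3, at 1.13 and 0.152 in knockdown GM, and at 0.450 and 0.284 FPKM in knockdown DM3, which rest on 18 and 6 reads. All control libraries lay above all knockdown libraries. Trim54 was 39.5-fold lower in knockdown than in control DM3 (-5.30, SE 0.91, adjusted p = 0.0492), the single member called there, where 1.29% of all genes were called higher and 0.687% lower. This call was lost without any 1 of the 4 DM3 libraries, with adjusted p up to 0.396 and a log2 fold change from -5.56 to -5.04. The count of members called was 0 in those 4 fits and 2 without either knockdown GM library, where Trim55 also passed (adjusted p = 0.0306 and 0.0294).

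Trim55 had a like pattern. It was at 1.72 and 0.779 FPKM in control GM, at 8.45 and 7.77 in control DM3, at 1.75 and 0.123 in knockdown GM, and at 0.621 and 0.384 FPKM in knockdown DM3. The DM3 libraries of the lines did not overlap, with a 13.9-fold lower level in the knockdown, but the test was not passed (-3.80, SE 0.95, adjusted p = 0.108). The model with the replicate number as a block, which the pairing of these libraries allows, gave an adjusted p of 0.0495 for Trim55 and 2 members called. Beside both genes, markers of newly formed muscle summed to 465 and 410 FPKM in control DM3 and to 10.9 and 7.54 in knockdown DM3, with Myog, a myogenic regulator, at 89.1 and 83.3 against 3.50 and 2.28 FPKM and Mymk, a fusion protein, at 199 and 180 against 4.58 and 3.47. Genes of the mature fibre summed to 930 and 947 against 90.9 and 97.3 FPKM, and 2 of 11 tested genes of the fibre list and 1 of 7 of newly formed muscle were called lower. Their part in the differences of Trim54 and Trim55 was not tested. The paper reports the other direction for its knockdown cells after induced differentiation, with more MyHC protein and higher fusion gene expression by RT-qPCR. The reason for this difference was not tested. Of the 11 white blood cell markers, 3 were tested in cells, Cd14 at 5.98 to 16.3 FPKM, Lyz2 at 0.472 to 7.03 FPKM and Cd68 at 0.669 to 6.38 FPKM over the 8 libraries. Cd14 was called higher in knockdown DM3 (1.17, adjusted p = 0.0367). Itgam and Adgre1 were listed at 0 in all 8 libraries and Ptprc reached at most 0.00392 FPKM, and the summed level of the list was 8.35 and 9.44 FPKM in control DM3 and 20.7 and 25 FPKM in knockdown DM3.

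The share of the MuRF pool shifted accordingly. Trim54 made up 65.6 and 69.1% of it in control DM3 and 24.6 and 20.2% in knockdown DM3, while Trim63 went from 2.52 and 2.26% to 41.4 and 52.6%. Trim63 itself was at 0.667 and 0.613 FPKM in control DM3 and at 0.757 and 0.743 in knockdown DM3. The knockdown libraries were higher by a small margin that did not pass the test.

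Foxo1 was higher in the knockdown in both media. It was at 4.92 and 6.60 FPKM in control GM and 8.64 and 12.9 in knockdown GM, and at 3.11 and 2.54 in control DM3 and 6.11 and 6.43 FPKM in knockdown DM3. The lines did not overlap in either medium. The difference was 2.18-fold at DM3 (1.13, SE 0.26, adjusted p = 0.0959) and 0.88 on the log2 scale in GM (SE 0.26, adjusted p = 0.450), and neither passed the test. A fit of the 4 DM3 libraries alone, without the spread of GM, gave an adjusted p of 0.0144 at DM3. Within each line Foxo1 was lower in DM3 than in GM, by -0.99 in control cells (SE 0.26, adjusted p = 0.145) and by -0.74 in knockdown cells (SE 0.26, adjusted p = 0.317), again with no overlap and no call.

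Klf15 at DM3 was at 0.771 and 1.1 FPKM in control and 3.45 and 3.02 in knockdown cells. These libraries did not overlap, but with the spread of Klf15 in GM the 3.26-fold difference was far from the threshold (1.70, SE 1.71, adjusted p = 0.710). In the fit of the 4 DM3 libraries alone it was called (adjusted p = 0.0137), as were Trim54, Trim55 (adjusted p = 0.00338) and Foxo1. The shares of all genes given above for DM3 come from the fit of all 8 libraries and are no background for these 4 calls. Fbxo32 was at 5.76 and 5.03 FPKM in control DM3 and at 7.94 and 6.94 in knockdown DM3, and at 9.44 and 2.26 and at 10.5 and 3.32 in the GM libraries of control and knockdown cells. Fbxo30 was between 5.86 and 14.7, Foxo3 between 4.91 and 18.9 and Foxo4 between 4.44 and 9.05 FPKM over the 8 libraries, and neither these 3 genes nor Fbxo32 were called in a cell comparison. In cells the FoxO pool was shared, with 29.4 to 52.1% Foxo3, 14.6 to 48.9% Foxo1 and 16.8 to 45.0% Foxo4.

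**Figure D5:**
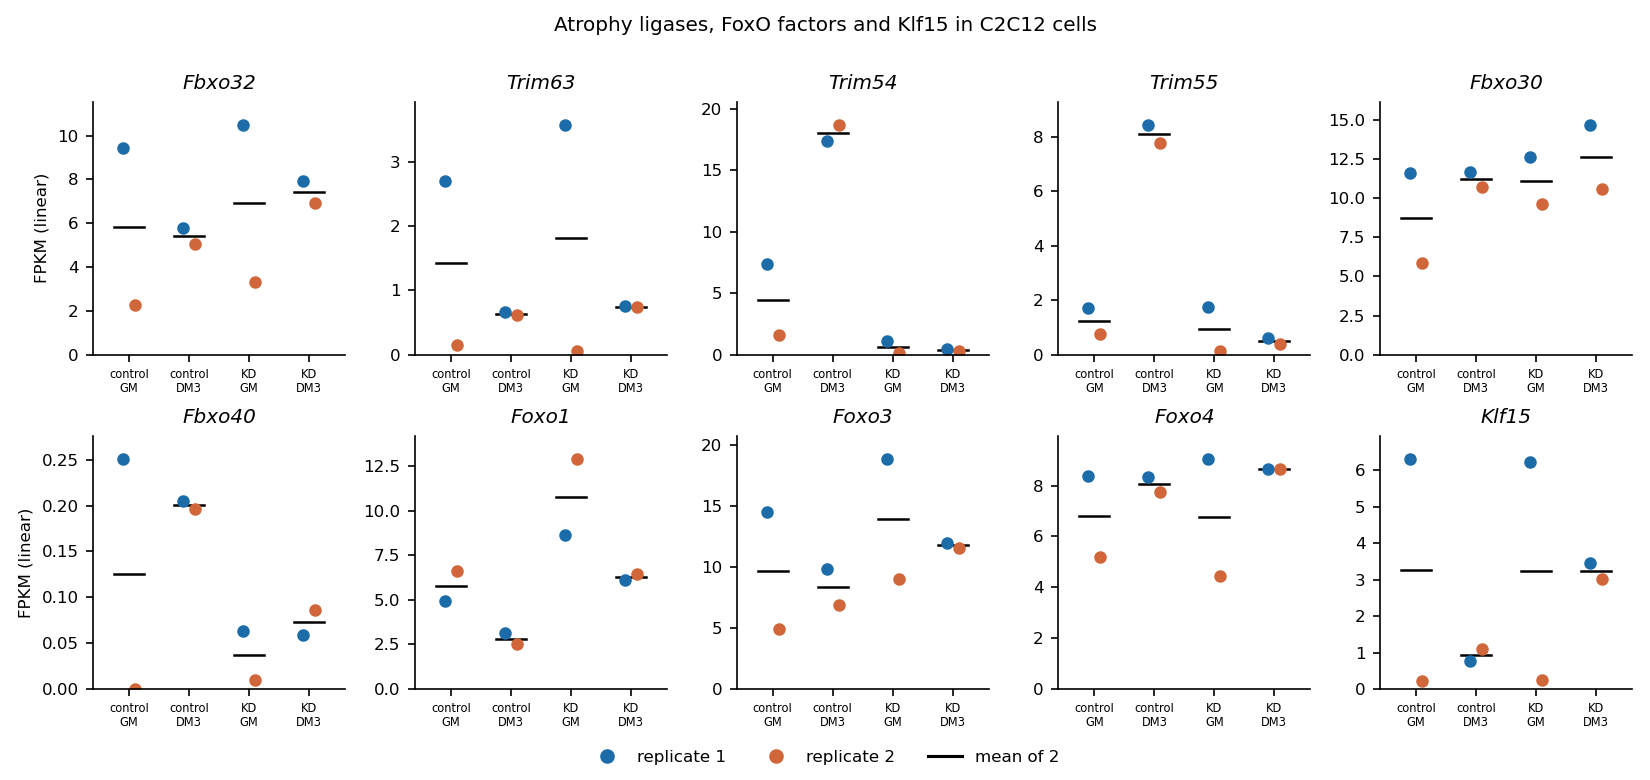
FPKM (linear axis from 0, with its own scale in each panel) of the 10 genes in C2C12 cells, for control and Mettl3 knockdown (KD) cells in GM and DM3, with each point 1 library (blue replicate 1, orange replicate 2) and each black bar the mean of the 2. Trim54 and Trim55 separate the lines in DM3 (18.7 and 17.4 against 0.450 and 0.284 FPKM for Trim54), and Klf15 and Trim63 spread over more than 18-fold between the 2 GM libraries of each line.

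In the other cell comparisons no member was called. From GM to DM3, 0.767% of all genes were called higher and 0.376% lower in control cells, where 3 of the 9 tested members had an unadjusted p under 0.05 in limma, among them Trim54 (2.36, SE 0.91, adjusted p = 0.253) and Trim55 (2.70, SE 0.95, adjusted p = 0.221). Without control GM replicate 1, Trim54 (3.43, adjusted p = 0.0424) and Foxo1 (-1.20, adjusted p = 0.0358) were called. In knockdown cells 0.0145% were called higher and 0.0145% lower, and 1 member had an unadjusted p under 0.05. Between the lines in GM, 0% were called in either direction, and 2 members had an unadjusted p under 0.05, Trim54 (-2.67, SE 0.91, adjusted p = 0.509) and Foxo1. The difference between the lines in the change on differentiation did not pass its test for Trim54 (-2.63, SE 1.29, adjusted p = 0.621), for Trim55 (-2.82, SE 1.34, adjusted p = 0.612) or for any other member, where 0% of all genes were called in either direction and no member had an unadjusted p under 0.05. With standard errors of this size the test does not show that the lines changed alike. The shares of all genes in this paragraph hold for the adjusted p. None is given for an unadjusted p, so the counts at that p have no background here. Of the 4 pathway lists, Smad3, a mediator of TGF-beta and myostatin signalling, was the single gene called in a cell comparison, higher in control DM3 than in GM (2.01, adjusted p = 0.0271). It was called in 4 of the 8 fits that left out 1 library (adjusted p up to 0.357).

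Closeness to a member in cells was described over 8 libraries among 11549 genes, which share the 2 lines, the media and the spread of the GM libraries. Fbxo32 was followed by Ctnnb1 (0.997), Usp54 (0.993), Wbp1l (0.988), Rhobtb1 (0.985) and Kctd21 (0.984). Trim63 was followed by D230025D16Rik (0.990), Selenop (0.980), Wipi1 (0.978), an autophagy protein, Dcun1d3 (0.975) and Spop (0.972), a cullin ligase adaptor. Foxo1 was followed by Plod1 (0.989), Zfp703 (0.983), Slc35f6 (0.982), Csk (0.979) and Emilin2 (0.977), and Klf15 by N6amt1 (0.986), 2900089D17Rik (0.986), Mmp11 (0.983), Atg12 (0.980) and Trim11 (0.979). None of these genes was among the 5 named for the same member in muscle.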

How the data were processed

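The study sequenced RNA of CTX-injured TA muscle and of C2C12 cells. Per the methods, HISAT2 placed the reads on GRCm38, featureCounts assigned them to Ensembl genes, and the authors derived FPKM with DESeq2, which they also used for their tests on counts. The deposited tables hold the FPKM values, scaled separately for muscle and cells. Here log2(FPKM + 0.1) was therefore tested with limma 3.58.1 in R 4.3.3 (lmFit, then eBayes using a trend of variance on mean), all groups of a table in 1 fit, with Benjamini-Hochberg adjustment over the genes that reached 0.5 FPKM in 2 or more libraries. Fold changes are on this scale, which understates those of low genes. Depth was recovered from the steps of the FPKM values with GENCODE M21 exon lengths, and at least 96.44% of muscle values and 98.64% of cell values came out as whole reads within 0.02. One read on 1 kb was worth 0.0494 to 0.0817 FPKM in muscle, 0.104 FPKM in control GM replicate 2 and 0.0315 to 0.0681 FPKM in the other cell libraries. Recovered reads on a member ran from 81 (Klf15) to 6919 (Fbxo32) in muscle.

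All 10 members were named whatever their values. From each list, up to 3 called genes with the largest rise and 3 with the largest fall were named, and the 5 nearest genes by correlation for 4 members, among genes with a mean of at least 1 FPKM. The members and lists were chosen with earlier results of these data known. The script was tested on simulated data: for day 3 against day 0 (16753 genes) it recovered 44 of 100 genes changed by 1 log2 unit and 73 of 100 changed by 2, with 11 unchanged genes called, and for control DM3 against GM (13823 genes) 9 and 50 of 100, with 5. Samples with the same replicate number deviated together in the cells (correlations 0.278 to 0.680, 6 of 6 pairs over 0.1) and not in muscle (-0.019 to 0.211, 2 of 10), so the numbers pair the cell libraries, for a reason the labels and methods do not give. The alternatives were the pseudocount, the filter, the scaling, the samples in the fit, the replicate block, the trend, the call rule, a term for Xist, each library left out, and Ckm in place of the fibre list. Of 26 labelled samples, 8 (Mettl3 and GFP overexpression) are not analysed here. Sequences came from RefSeq and gene positions from GENCODE M21. Python 3.11.15, pandas 2.3.3 and matplotlib 3.10.9 were used.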

Additional observations from a re-analysis of the deposited data

How the results depend on the processing

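No fold change of a member that was called changed direction under another setting. Of all 115 member fold changes, called or not, 9 reversed with quantile normalization, 2 with a pseudocount of 1 and 1 with a pseudocount of 0.01, and 3 of 70 with the term for Xist. Counts of members called moved as follows. With the study's call rule (the same adjusted p, plus a log2 fold change of 2 or more in size), 3 members were called at day 3 against day 0, 1 at day 5 against day 0, 0 at day 3 against day 1 and 1 at day 10 against day 3. Fitting only the groups compared gave 1 at day 5 against day 0, 2 at day 3 against day 1 and 4 for knockdown against control at DM3. The term for Xist gave 0 at day 5 against day 0 and 1 at day 3 against day 1. No filter on low values gave 2 at day 3 against day 1 and 0 at DM3, where a pseudocount of 1 gave 2 and one of 0.01 gave 0. Quantile normalization gave 1 at day 5 against day 3, and moved the median of all genes at day 3 against day 0 from 0.01 to -0.12. The replicate block gave 2 members at DM3 and changed no other count by over 1.5 times. The causes were not tested. The shares of all genes given above come from the fits without these changes and with all libraries. They are therefore no background for the counts of this section.

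Leaving out each library in turn gave 3 to 6 members at day 3 against day 0, 0 to 7 at day 5 against day 0, 1 to 4 at day 3 against day 1, 1 to 6 at day 10 against day 3, 0 to 2 for control DM3 against GM and 0 to 2 for knockdown against control at DM3. Counts under median-ratio scaling, a filter at 1 FPKM and eBayes without the trend stayed within 1.5 times. In the deposited values the median log2 fold change of all genes already lay between -0.05 and 0.01 in every comparison. Median-ratio scaling therefore had little left to change, and its agreement says little. Of the called members nearest the threshold, Trim63 at day 3 against day 0 missed it with a pseudocount of 0.01 (adjusted p = 0.0535), no filter (0.0796), quantile normalization (0.128), only the groups compared (0.078), no trend (0.068) and the term for Xist (0.203). Klf15 at day 10 against day 3 missed it with a pseudocount of 1 and in 5 other settings (adjusted p from 0.0593 with the replicate block to 0.129 with the term for Xist), and Foxo4 at day 3 against day 1 in 6 (0.0531 to 0.157). Fbxo40 at day 5 against day 0 missed it in 4 (0.0518 to 0.152), and Trim54 at DM3 with a pseudocount of 0.01 (0.0687) and with no filter (0.0501). With Ckm in place of the fibre list, 27 of 40 relative levels stayed within 1 SD. At 2 libraries a group, with reads on Trim63, Trim54 and Klf15 down to 3, 4 and 6 in GM replicate 2, small differences were not detectable.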
